A study of Mus musculus with 2 samples.

Results

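The 8 genes described here encode miR-128, miR-129, miR-137, miR-153 and miR-218, which are known as neuron-enriched regulators of excitability and of synapses. They were chosen by name and not by a rule on their values, but earlier results of these data were known. They are Mir128-1, Mir128-2, Mir129-1, Mir129-2, Mir137, Mir153, Mir218-1 and Mir218-2, and all 8 were found among the 2202 microRNA genes counted. RNA below 30 bases was sequenced from hippocampus tissue of male B6CASTF1/J mice aged 10 days, an F1 cross between C57BL/6J and CAST/EiJ. The only group holds 2 biological replicates, each labelled with 3 males. The labels give the replicates different animal numbers and biosample identifiers but the same donor identifier, so how far their spread is between animals and how far technical cannot be told apart. The design holds no contrast of conditions. Levels are in CPM, the counts per 1000000 counts on microRNA genes in that library.

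A microRNA is cut as a hairpin out of a longer transcript, and 1 arm of the hairpin is loaded into an Argonaute protein. Bases 2 to 8 of the mature strand, the seed, pair with target transcripts and lower their translation and stability. In mice, loss of miR-128 is known to cause hyperactivity and seizures. MiR-137 lies at a human schizophrenia risk locus and acts on synaptic vesicle release, miR-153 targets transcripts of the vesicle release machinery such as Snap25, miR-129 targets the transcript of a potassium channel, and miR-218 is best known from motor neurons.

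The best studied mature strand of each of the 5 families is shown first, because its seed defines the targets. Sequences are from RefSeq (GRCm38.p6) and run 5′ to 3′, with the seed in capitals.
miR-128-3p: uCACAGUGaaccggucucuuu
miR-129-5p: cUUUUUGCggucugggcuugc
miR-137-3p: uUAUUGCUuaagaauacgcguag
miR-153-3p: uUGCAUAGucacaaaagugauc
miR-218-5p: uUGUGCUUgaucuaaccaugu
These 5 seeds all differ from each other. In the RefSeq table no other mouse mature microRNA carried the seed of miR-128-3p, miR-129-5p, miR-137-3p or miR-153-3p, and 1 other, miR-7002-3p, carried that of miR-218-5p.

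Of these 5 strands, 3 are made from a pair of loci with identical mature sequence. The deposited counts leave out reads that fit several places, so the level of such a gene rests on reads that differ between its loci. Strands from the opposite arms of these loci are therefore shown as well, again with the seed in capitals. That of Mir129-1 is not shown, so the miR-129 loci were not compared in this way.
miR-128-1-5p: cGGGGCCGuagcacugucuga
miR-128-2-5p: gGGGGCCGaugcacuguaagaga
miR-129-2-3p: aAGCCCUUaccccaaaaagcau
miR-218-1-3p: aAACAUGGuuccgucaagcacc
miR-218-2-3p: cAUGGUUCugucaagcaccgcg
The 5p strands of Mir128-1 and Mir128-2 carry the same seed, whereas the 3p strands of Mir218-1 and Mir218-2 carry different ones.

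The paired hairpins show how much the loci have in common. Capitals mark each stretch of at least 20 consecutive bases that is also present in another counted microRNA gene.
Mir128-1: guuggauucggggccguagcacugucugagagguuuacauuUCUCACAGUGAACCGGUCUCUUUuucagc
Mir128-2: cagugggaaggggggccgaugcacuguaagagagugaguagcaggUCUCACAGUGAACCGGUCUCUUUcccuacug
Mir129-1: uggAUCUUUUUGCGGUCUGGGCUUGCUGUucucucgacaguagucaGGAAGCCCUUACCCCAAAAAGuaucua
Mir129-2: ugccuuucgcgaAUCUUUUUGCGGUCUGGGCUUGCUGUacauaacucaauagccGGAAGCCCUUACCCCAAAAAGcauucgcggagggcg
Mir218-1: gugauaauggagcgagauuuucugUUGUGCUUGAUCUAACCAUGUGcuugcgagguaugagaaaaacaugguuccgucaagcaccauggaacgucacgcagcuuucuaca
Mir218-2: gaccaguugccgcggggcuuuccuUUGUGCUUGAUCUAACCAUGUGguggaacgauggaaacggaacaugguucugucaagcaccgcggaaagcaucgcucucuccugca
Over their whole length the paired hairpins were 71.4% identical for miR-128, 68.5% for miR-129 and 70.4% for miR-218. In each pair the identical strand lies inside a shared stretch, of 23 bases for miR-128, 26 for miR-129 and 22 for miR-218. For miR-128-3p the shared stretch ends with the mature strand itself, so a read that runs 1 base past the annotated 3′ end differs between the loci. For miR-129-5p the hairpins stay identical for 3 bases after the strand, and both arms of the miR-129 hairpins hold a shared stretch. Mir137 and Mir153 shared no such stretch with any counted gene, against 49.2% of all counted genes that did.

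**Figure D1:**
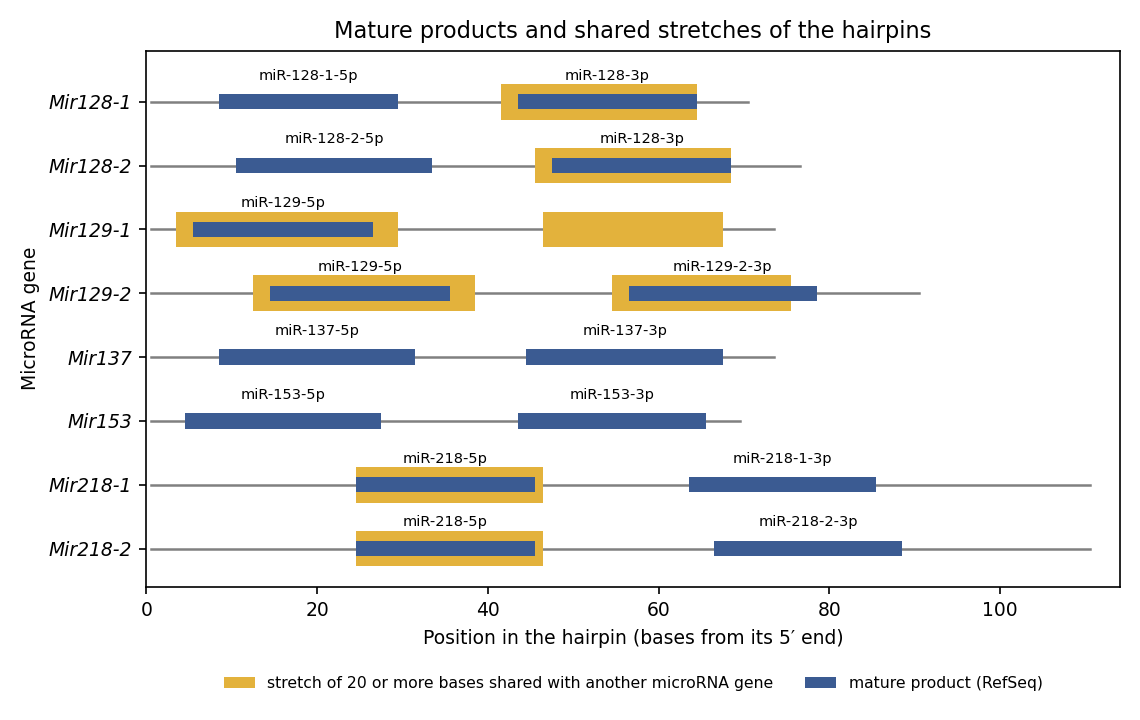
Mature products from RefSeq (narrow blue bars) and stretches of 20 or more bases shared with another microRNA gene (wide yellow bars) along each hairpin (grey lines), by position in bases from the 5′ end. The strand common to both loci lies in a shared stretch in all 3 pairs, and Mir137 and Mir153 have no shared stretch.

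Of the 8 hairpins, 5 lie in an intron of a protein-coding gene on the same strand (mm10, as for all positions, with host genes from GENCODE M21). Mir128-1 (ENSMUSG00000065520.2), at chr1:128202361-128202430, lies in R3hdm1, and Mir128-2 (ENSMUSG00000065441.2), at chr9:112118636-112118711, lies in Arpp21, which encodes a cAMP-regulated phosphoprotein of neurons. Mir153 (ENSMUSG00000065538.1), at chr12:117250817-117250885, lies in Ptprn2, a receptor-type phosphatase gene of secretory vesicles. Mir218-1 (ENSMUSG00000065603.1), at chr5:48223942-48224051, and Mir218-2 (ENSMUSG00000065583.1), at chr11:35616816-35616925, lie in Slit2 and Slit3, which encode axon guidance ligands of Robo receptors. The remaining 3 lie in noncoding genes. Mir129-1 (ENSMUSG00000065469.1), at chr6:29022619-29022691, lies in an exon of Gm3294. Mir129-2 (ENSMUSG00000065511.1), at chr2:94241364-94241453, lies in an intron of Mir670hg. Mir137 (ENSMUSG00000065569.2), at chr3:118433857-118433929, lies in an exon of Gm26871.

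Replicate 1 held 4815761 counts on microRNA genes and replicate 2 held 3495401, and for every counted read there were 0.968 reads that fit several places in replicate 1, against 1.15 such reads in replicate 2. In replicate 1 the 8 genes made up 1.12% of all counts, and in replicate 2 they made up 1.36%, a mean of 1.24% ± 0.169 (SD, n = 2). Marker sums of several other cell types differed between the libraries, to different degrees. Of all 540 tested genes, 18.7% passed the test given below. The marker lists are too small for their shares to be compared with that. Red blood cell microRNAs summed to 1229 CPM in replicate 1 and 76.4 CPM in replicate 2 (2 of 3 genes passed the test given below), choroid plexus and ciliated cell microRNAs to 2582 CPM in replicate 1 and 5333 CPM in replicate 2 (3 of 6 tested), and myeloid ones to 495 CPM in replicate 1 and 906 CPM in replicate 2 (2 of 4). Oligodendrocyte microRNAs summed to 1037 CPM in replicate 1 and 1740.3 CPM in replicate 2 (0 of 3), and Mir126a of endothelium reached 14888 CPM in replicate 1 and 9301 CPM in replicate 2 (0 of 1). Mural cell microRNAs summed to 3962 CPM in replicate 1 and 4390.05 CPM in replicate 2 (1 of 2), and those of liver and striated muscle to 152.8 CPM in replicate 1 and 78.1 CPM in replicate 2 (1 of 4 tested). Of the red blood cell genes, Mir451a and Mir144 passed with log2 ratios of 4.78 and 3.02 (replicate 1 over replicate 2). Mir486 was nearly level at 0.15. Most myeloid counts were on Mir150, which passed with a log2 ratio of -1.06. Mir223 also passed, with 15 counts in replicate 1 and 47 in replicate 2. Mir155 was nearly level at -0.10, and Mir142 went the other way at 0.33. Among the oligodendrocyte genes Mir219a-2 had -0.80 and Mir338 had -0.76, whereas Mir219a-1 went the other way at 0.97. Most mural counts were on Mir143, nearly level at -0.09, and Mir145a passed at -1.18. Of the liver and striated muscle genes Mir206 passed at 1.65. Mir122 had 0.32, Mir208a was level at -0.006, and Mir499 went the other way at -0.82. In such bulk samples fewer cells of a type and less RNA per cell cannot be told apart. No gene of these lists had 0 counts in both libraries, and the part of these differences in the results below was not tested. The 3 Mir124a genes, which would mark neurons, held 17 counts in each library and share stretches with each other, so they could not serve to check the label.

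Mir137 and the Mir128 genes held most of the counts of the 8 genes. Mir137 had 25601 counts (5316 CPM) in replicate 1 and 14368 counts (4111 CPM) in replicate 2, a mean of 4713 ± 852 CPM (SD, n = 2). It ranked 36 of 2202 genes in replicate 1 and 46 in replicate 2. Neither of its arms occurs in another counted hairpin. The counts are for the whole hairpin, so the shares of the arms were not separated.

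Mir128-1 had 16038 counts (3330.3 CPM) in replicate 1 and 19394 counts (5548 CPM) in replicate 2, with a mean of 4439 ± 1568 CPM (SD, n = 2). Mir128-2 had 6051 counts (1256 CPM) in replicate 1 and 8523 counts (2438 CPM) in replicate 2, with a mean of 1847 ± 836 CPM (SD, n = 2). Both genes were lower in replicate 1, whereas Mir137 was higher there. Mir137 and Mir128-1 changed places between the libraries, Mir137 being 1.60 times Mir128-1 in replicate 1 and 0.741 times in replicate 2. Their values overlapped, so their order could not be told beyond the spread. Summed over both loci, the miR-128 genes took 41.1% of the counts of the 8 genes in replicate 1 and 58.9% in replicate 2, and Mir137 took 47.6% in replicate 1 and 30.3% in replicate 2. Reads that fit both Mir128 loci are outside these counts, whereas Mir137 shares no stretch with another counted gene. The families were thus not counted alike.

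The miR-129 genes stood below them. Mir129-2 had 3669 counts (762 CPM) in replicate 1 and 3366 counts (963 CPM) in replicate 2, with a mean of 862 ± 142 CPM (SD, n = 2). Mir129-1 had 1433 counts (298 CPM) in replicate 1 and 986 counts (282 CPM) in replicate 2, with a mean of 289.8 ± 10.9 CPM (SD, n = 2). By CPM, Mir129-1 had the most similar levels in the libraries of all 8 genes.

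The level of Mir129-2 depended on counting by strand. A further microRNA gene, Mir129b, is annotated on the opposite strand of the same locus at chr2:94241378-94241442, inside the span of Mir129-2. It was not among the 8 genes. On its own strand Mir129b held 2 counts in replicate 1 and 2 in replicate 2, below the 3 counts that a count of 0 allows. On the strand of Mir129-2, 3657 counts lay over Mir129b in replicate 1 and 3349 in replicate 2. In the unstranded column Mir129-2 held 12 counts in replicate 1 and 17 in replicate 2, and Mir129b held 0 in both. For the 7 other genes the unstranded and the sense counts were equal in both libraries, and none had an antisense count.

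Mir218-2, Mir153 and Mir218-1 were the lowest. Mir218-2 had 458 counts (95.1 CPM) in replicate 1 and 637 counts (182 CPM) in replicate 2, with a mean of 139 ± 61.6 CPM (SD, n = 2). Mir218-1 had 64 counts (13.3 CPM) in replicate 1 and 32 counts (9.15 CPM) in replicate 2, with a mean of 11.2 ± 2.92 CPM (SD, n = 2). The exact Clopper-Pearson 95% interval of Mir218-1 was 10.2 to 17.0 CPM in replicate 1 and 6.26 to 12.9 CPM in replicate 2, so these values overlapped within counting error, which is the only error that intervals of this kind cover. At these depths a count of 0 would allow up to 0.623 CPM in replicate 1 and 0.858 CPM in replicate 2, so Mir218-1 was detected in both.

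Mir153 differed most between the libraries among the 8 genes. It had 424 counts (88.0 CPM) in replicate 1 and 62 counts (17.7 CPM) in replicate 2, with a mean of 52.9 ± 49.7 CPM (SD, n = 2). Its intervals, 79.9 to 96.8 CPM in replicate 1 and 13.6 to 22.7 CPM in replicate 2, did not overlap. Like Mir137 it shares no stretch with another counted gene, so no annotated copy competed with it for reads.

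By mean level the order was Mir137, Mir128-1, Mir128-2, Mir129-2, Mir129-1, Mir218-2, Mir153 and Mir218-1. Of the 7 neighbouring steps in this order, 6 lay between genes whose values in the libraries did not overlap, and the step that did overlap was the one from Mir137 to Mir128-1. The step from Mir218-2 to Mir153 was narrow in replicate 1, at 1.08 times, and wide in replicate 2, at 10.3 times. In replicate 1 the intervals of these genes overlapped, with 86.6 to 104 CPM for Mir218-2. A read covers about a whole mature microRNA, so levels were not divided by length, but the order of the means was the same per 100 bases of hairpin. On that scale 5 of the 7 steps lay between genes that did not overlap. These are levels of uniquely assigned reads, and differences in how well each microRNA is captured were not analysed here.

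**Figure D2:**
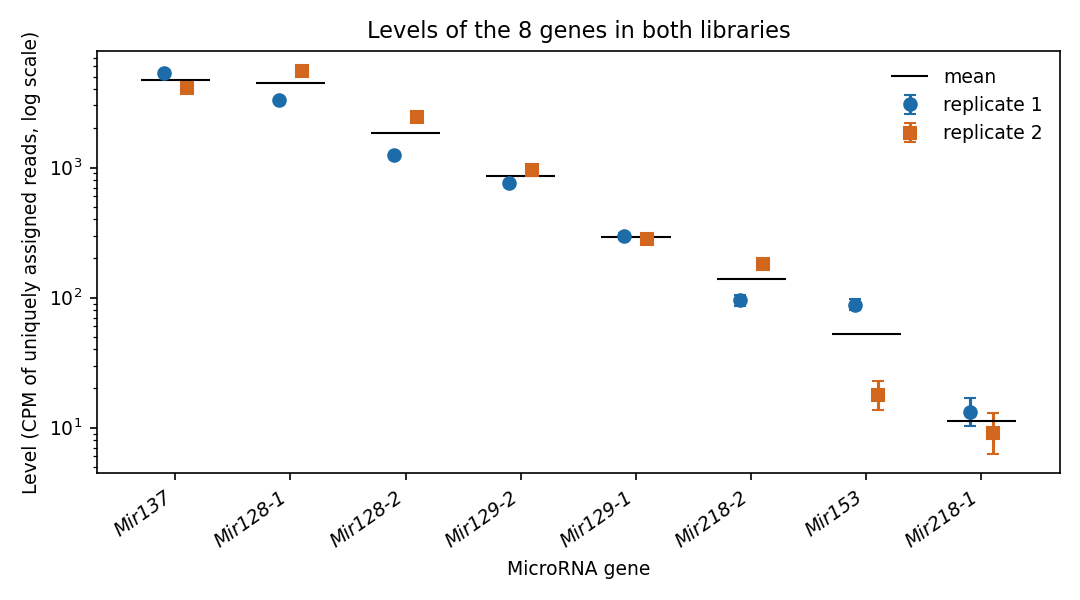
Level of each gene (CPM of uniquely assigned reads, log axis) in replicate 1 (circles) and replicate 2 (squares) with exact 95% intervals, and the mean of both (lines). Levels run from a mean of 4713 CPM for Mir137 to 11.2 CPM for Mir218-1, and the libraries stand far apart for Mir153, at 88.0 CPM in replicate 1 and 17.7 CPM in replicate 2.

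The next question was how the uniquely assigned reads of a pair divided between its loci. Mir128-1 held 72.6% of the pair's 22089 counts in replicate 1, with an exact interval of 72.0% to 73.2%, and 69.5% of 27917 counts in replicate 2, with an interval of 68.9% to 70.0%. Mir129-1 held 28.1% of 5102 counts in replicate 1 (26.9% to 29.3%) and 22.7% of 4352 counts in replicate 2 (21.4% to 23.9%). Mir218-1 held 12.3% of 522 counts in replicate 1 (9.57% to 15.4%) and 4.78% of 669 counts in replicate 2 (3.29% to 6.69%). The same locus thus led in both libraries in each pair, Mir128-1 of R3hdm1, Mir129-2 of Mir670hg and Mir218-2 of Slit3.

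Within each pair the intervals of the libraries did not overlap, so the splits differed between these libraries by more than counting error. The means were 71.0% ± 2.22 for Mir128-1, 25.4% ± 3.84 for Mir129-1 and 8.52% ± 5.29 for Mir218-1 (SD, n = 2 for each). These splits describe reads that can be told apart and not the output of the loci, since reads that fit both loci equally are outside them. How many of the reads that fit several places came from these genes was not analysed here.

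**Figure D3:**
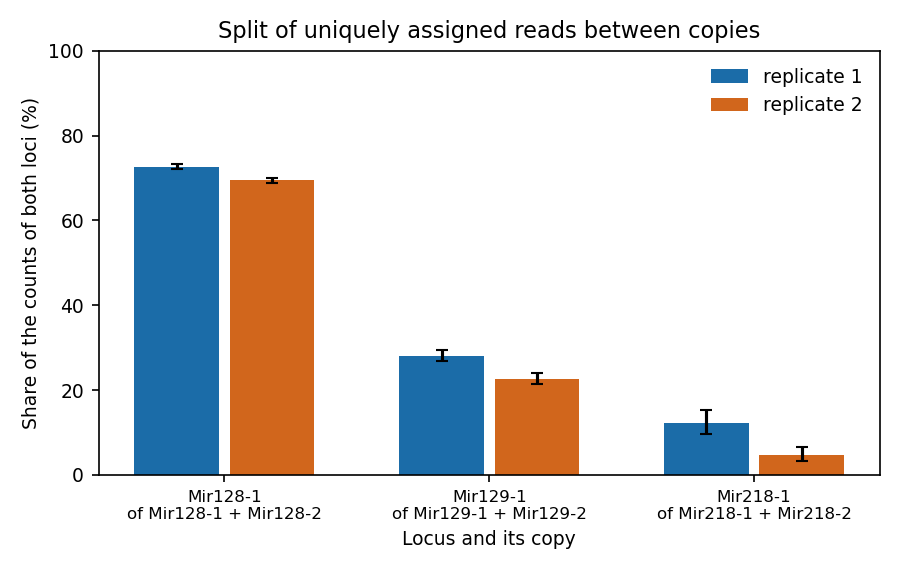
Share of the summed counts of both loci (%) that lay on the first named locus, in replicate 1 (blue) and replicate 2 (orange), with exact 95% intervals. In replicate 1 Mir128-1 held 72.6%, Mir129-1 28.1% and Mir218-1 12.3%, and in replicate 2 they held 69.5%, 22.7% and 4.78%.

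The last question was how far the libraries differed for these genes, beside all genes. Each of the 540 genes that reached 10 counts summed over the libraries was tested with an exact binomial test, two-sided, against the split of the library totals. A gene was called at a Benjamini-Hochberg adjusted p below 0.05, adjusted over all 540, if its log2 ratio was also 1 or more in size. Ratios are replicate 1 over replicate 2. The test compares the reads of these libraries and not conditions. All 8 genes passed the count minimum and 1 of them, Mir153, was called, against 18.7% of all tested genes. In the direction of Mir153, higher in replicate 1, 7.22% of tested genes were called.

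Mir153 had a log2 ratio of 2.30, or 4.93-fold, with an adjusted p of 3.52e-44 by the exact binomial test. Its ratio was larger in size than that of 96.1% of tested genes, and 20 genes had a larger one. Of the 66 other tested genes with a mean level within 2-fold of that of Mir153, 16.7% were called, and their median absolute log2 ratio was 0.60.

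The remaining 7 genes lay within 2-fold, as did 75.9% of tested genes. Mir128-2 and Mir218-2 came nearest to the threshold, with log2 ratios of -0.96 and -0.94, followed by Mir128-1 at -0.74. Mir218-1 had 0.53, Mir137 had 0.37, Mir129-2 had -0.34 and Mir129-1 had 0.08. The median absolute log2 ratio over all tested genes was 0.54, which Mir128-1, Mir128-2 and Mir218-2 exceeded in size and the other 4 did not. Without the ratio minimum 6 of the 8 genes passed the adjusted p, and 301 of the 540 genes did, or 55.7%. The adjusted p of Mir129-1 was 0.299 and that of Mir218-1 was 0.155 by the exact binomial test. Of the 8 genes, 4 were higher and 4 lower in replicate 1, and their median log2 ratio was -0.13, beside -0.17 for all tested genes.

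**Figure D4:**
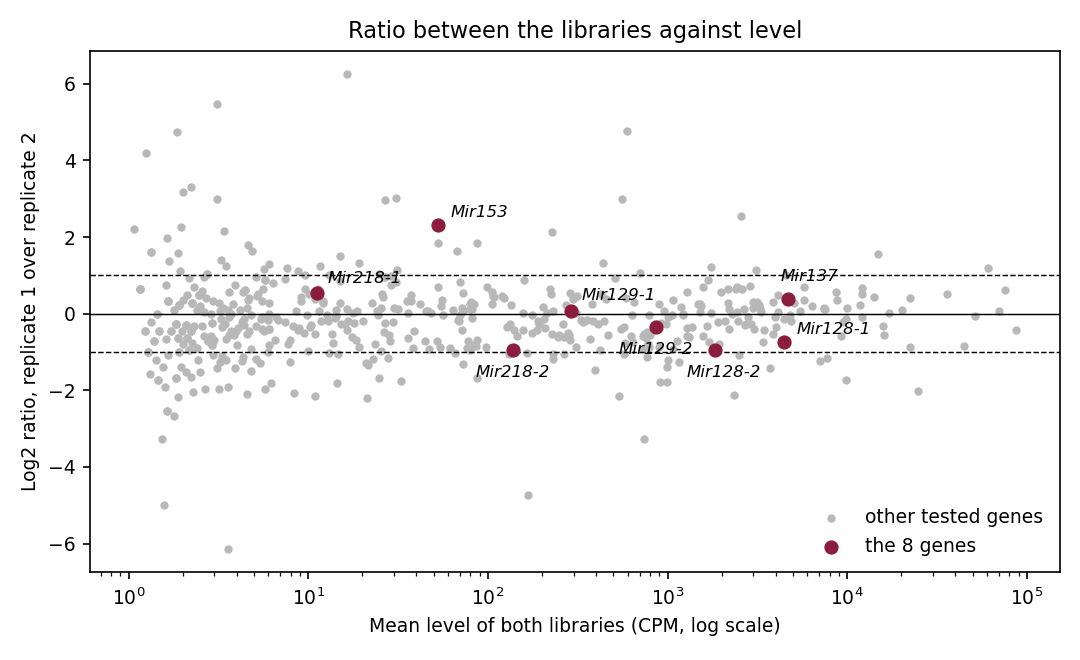
Log2 ratio of replicate 1 over replicate 2 against the mean level (CPM, log axis) for the 540 tested genes, with the 8 genes in dark red and dashed lines at a log2 ratio of 1 in each direction. Mir153 lies at 2.30, and the other 7 lie between -0.96 and 0.53.

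Beside 17 other neuron-enriched microRNA genes, the 8 genes lay within the range of levels. Of the 17, 4 had a mean level above Mir137. They were Mir139 with 44583 ± 18050 CPM, Mir149 with 22382 ± 4421 CPM, the activity-induced Mir132 with 7062 ± 4065 CPM and Mir138-1 with 5734 ± 1892 CPM (SD, n = 2 for each). At the other end, 4 lay below Mir218-1, namely the 3 Mir124a genes and Mir9-2. Of the 17, 10 share a stretch of at least 20 bases with another gene, beside 6 of the 8 genes. The 10 include all 4 that lay below Mir218-1, and also Mir138-1. Counts of such genes leave out reads that fit several places, so they do not give the level of the mature microRNA. Of the 15 that were tested, 1 was called, against 18.7% of all tested genes. It was Mir132, which was lower in replicate 1, with a log2 ratio of -1.25. The small number of genes allows no reading of this difference in share. The median log2 ratio of the 15 was -0.19.

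For each of the 8 genes the counted gene with the nearest levels was taken, by Euclidean distance over log2(CPM + 1) in the 2 libraries. It was Mir23a for Mir137 (distance 0.17), Mir378a for Mir128-1 (0.30), Mir449a, one of the choroid plexus and ciliated cell markers, for Mir128-2 (0.17), Mir181a-1 for Mir129-2 (0.16) and Mirlet7a-1 for Mir129-1 (0.13). It was Mir25 for Mir218-2 (0.08), Mir677 for Mir153 (0.36) and Mir183 for Mir218-1 (0.07). With 2 libraries this measures nearness of level alone.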

How the data were processed

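Per the notes deposited with the tables, the authors used mm10 with GENCODE M21 and derived each table from the reads of its own library. The deposited values are raw counts of reads on microRNA genes. Which aligner and counter made them is not given in the sources used here. Besides 4 lines of totals, which were kept out of library sizes and tests, a table has 3 columns of counts, read from their layout and totals as unstranded, sense and antisense. The stranded column with the larger total on genes was taken as sense. Of all reads, 38.9% in replicate 1 and 34.6% in replicate 2 were counted on genes, and 37.7% in replicate 1 and 39.8% in replicate 2 fitted several places and were counted on none.

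All 2202 identifiers matched GENCODE M21. The GENCODE and RefSeq hairpins of all 8 genes were equal. Shared stretches were searched among the counted hairpins in their own orientation, not in the genome. CPM was computed from the deposited counts, with exact Clopper-Pearson 95% intervals. Log2 ratios had 0.5 counts added. With 1 group, no quasi-likelihood or DESeq2 contrast could be fitted, so genes were compared by an exact binomial test with Benjamini-Hochberg adjustment, checked on simulated data. The simulated counts held sampling noise alone, so the check does not cover further variation between libraries. The libraries were counted as 2 samples because the labels give them as separate biological replicates. Their counts differed by more than sampling noise (chi-square 459040 over 540 genes), which does not show that they are independent. Mapping of reads from CAST/EiJ alleles was not analysed here.

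The genes and lists were chosen with earlier results of these data known. Named genes were the 8 genes, called genes of the neuron-enriched list, the nearest gene in level of each of the 8, and others named after their values were seen. Alternatives covered scaling (TMM, DESeq2 size factors, all reads), unstranded counts, the count filter, the ratio minimum, the counts added and each replicate left out. Sizes came from edgeR 4.0.16 and DESeq2 1.42.0 in R 4.3.3, tests from SciPy 1.17.1 in Python 3.11.15 with pandas 2.3.3 and numpy 2.4.6, and figures from matplotlib 3.10.9.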

Additional observations from a re-analysis of the deposited data

How the results depend on the processing

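Mir153 was called under every one of the 6 alternatives run for the comparison of the libraries, with log2 ratios between 2.22 and 2.47. No gene of the 8 changed the sign of its ratio. Under DESeq2 size factors the log2 ratio of Mir129-2 (-0.17) was smaller in size than that of Mir129-1 (0.24). Without the ratio minimum 301 genes were called, 6 of them among the 8. Calls under the other 5 alternatives stayed within 1.5 times of the main count. Of all calls, 38.6% were higher in replicate 1 under the main scaling, 47.9% under TMM and 54.5% under DESeq2. The median log2 ratio of tested genes was -0.17, -0.09 and -0.0051 under these scalings. On unstranded counts Mir129-1 held 98.7% of the miR-129 pair and Mir129-2 came last in the order; the cause was not tested. With all reads as denominator the 8 genes took 0.452%, and Mir137 and Mir153, which share no stretch, took 0.477% of counts on genes. The order of levels was the same under the other 4 alternatives run for it, which were chosen after seeing the data. Leaving out a replicate gives no comparison of libraries. No paired analysis was possible because the samples form 1 group. Mir218-1, with 64 counts in replicate 1 and 32 in replicate 2, is limited by depth.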
